A study of Mus musculus with 15 samples.

Results

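UDP-glucuronosyltransferases (UGTs) are enzymes of the hepatocyte endoplasmic reticulum that attach a sugar to small, fat-soluble molecules so that these can leave the cell in bile or urine. Here 9 UGT genes of mouse liver, Ugt1a1, Ugt2b1, Ugt2b5, Ugt2b34, Ugt2b35, Ugt2b36, Ugt2b38, Ugt3a1 and Ugt3a2, were followed across 5 diets. They were selected on measured values, since the family was chosen because Ugt2b38 was lower on the high-fat diet and higher with decaffeinated coffee. The values of Ugt2b38 in those 2 comparisons are therefore described without a test. The genes were measured by 13 of the 45037 probe sets of an Affymetrix mouse genome array that are not controls. Of these, 10 probe sets were annotated to 1 gene and 3 were shared by 8 Ugt1a genes, Ugt1a1 among them. Where several probe sets read a gene they are called A, B and C.

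The study asked how coffee changes the liver of mice on a high-fat diet, and RNA of 15 livers was hybridised, 1 mouse per array and 3 mice per group. All were male C57BL/6J mice, 7 weeks old when the diets began and fed for 9 weeks. Fat supplied 10% of the energy of the normal diet (ND group) and 60% of that of the high-fat diet (HF group). The HFCC, HFDC and HFGC groups ate the latter diet with 2% freeze-dried coffee in it, which was caffeinated in HFCC, decaffeinated in HFDC, and unroasted green coffee with its caffeine in HFGC. No group combined coffee with the normal diet. Values are log2 of the RMA intensities that the authors deposited, so a difference of 1 is a doubling. Groups were compared within a probe set, and levels of different genes were not set against each other.

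In the textbook account, the UGT1A enzymes arise from a single gene locus in which each first exon is joined to the same following exons, and UGT1A1 is the enzyme that conjugates bilirubin. The UGT2B enzymes are encoded by separate, closely related genes and act on steroid hormones, bile acids, fatty acid derivatives and drugs. In humans UGT3A1 uses N-acetylglucosamine and UGT3A2 uses glucose in place of glucuronic acid. In the RefSeq gene order on chromosome 5, the protein-coding genes ran Ugt2b34, Ugt2b1, Ugt2b35, Ugt2b36, Ugt2b5, Ugt2b37, Ugt2a3, Ugt2b38, and Ugt3a1 lay beside Ugt3a2 on chromosome 15.

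The start regions of Ugt2b38 and its close relatives are shown because the RNA of these genes shared a high level in the HFDC group, described further on. Each is the 300 bases from 250 before to 50 after the RefSeq gene start in GRCm38.p6, read 5′ to 3′ on the minus strand. The capitals mark TTAATNATT, searched as these letters on both strands (AATNATTAA on the reverse), which is part of the consensus for HNF1, a hepatocyte transcription factor. The regions lie at chr5:87424154-87424453 for Ugt2b38, chr5:87254739-87255038 for Ugt2b37 and chr5:87140291-87140590 for Ugt2b5.
Ugt2b38: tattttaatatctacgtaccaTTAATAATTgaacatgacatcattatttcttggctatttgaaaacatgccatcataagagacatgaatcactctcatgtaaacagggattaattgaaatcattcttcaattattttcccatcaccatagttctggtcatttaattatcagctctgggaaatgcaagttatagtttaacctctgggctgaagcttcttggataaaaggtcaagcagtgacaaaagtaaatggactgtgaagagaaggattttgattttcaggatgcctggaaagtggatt
Ugt2b37: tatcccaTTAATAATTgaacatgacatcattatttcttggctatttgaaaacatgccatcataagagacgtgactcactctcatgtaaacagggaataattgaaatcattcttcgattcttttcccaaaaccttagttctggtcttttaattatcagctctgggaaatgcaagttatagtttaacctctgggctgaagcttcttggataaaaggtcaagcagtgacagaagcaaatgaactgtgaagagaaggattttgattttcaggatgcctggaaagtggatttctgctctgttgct
Ugt2b5: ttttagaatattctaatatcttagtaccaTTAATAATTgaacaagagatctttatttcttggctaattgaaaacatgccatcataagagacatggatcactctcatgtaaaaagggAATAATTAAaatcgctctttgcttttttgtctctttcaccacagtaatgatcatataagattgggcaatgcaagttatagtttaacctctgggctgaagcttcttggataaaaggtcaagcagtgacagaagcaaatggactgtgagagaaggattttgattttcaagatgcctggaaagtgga

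In a pairwise alignment 273 bases, or 91% of the 300, were identical between Ugt2b38 and Ugt2b37, and 261 bases, or 87%, between Ugt2b38 and Ugt2b5. The start of Ugt2b1 shared 55.3% of its bases with that of Ugt2b38, beside 54% for Ugt1a1 and 51.7% for Ugt3a1, which belong to other UGT subfamilies. A start region was found for 8 of the 9 genes, all but Ugt3a2, and 4 of the 8 (Ugt1a1, Ugt2b5, Ugt2b35 and Ugt2b38) held the motif, against 484 of 32851 RefSeq start regions of this length (1.47%). The match began at position -229 in Ugt2b38 and -243 in Ugt2b37, at -221 and -134 in Ugt2b5, at -150 in Ugt2b35 and at -45 in Ugt1a1, counted from the gene start. A match of letters is a description of the sequence and does not show that a factor binds there.

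Of the 13 UGT probe sets, 12 were brighter than at least 96.3% of all probe sets, and that of Ugt2b38 was brighter than 81.4%. Defining hepatocyte genes were present at high level in every group, with a summed intensity between 94008 and 101402 over the 5 measured of 6 markers (Alb and Apoa1 among them), and none of the 5 passed the test in any comparison. Of 5 endothelial markers 1 rose in HF against ND and 1 fell in HFDC and in HFGC against HF, of 5 stellate markers 1 rose in HF against ND, and none of 6 macrophage markers passed in any comparison. In each group 3 of 4 cholangiocyte markers and 3 of 4 lymphocyte markers lay below the median level of all probe sets. In whole liver, fewer cells of a type and less RNA per cell cannot be told apart. The array medians ran from 48.5 to 49.95 on the intensity scale, and the number of arrays, 3 a group, limits the precision.

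The HF arrays stood apart in the quality of their RNA. The signal at the 3′ end of Gapdh and Actb minus that at their 5′ end, which rises where RNA is partly degraded, was 1.08, 1.40 and 1.17 on the log2 scale in the 3 HF arrays, and 0.70 to 1.07 in the other 12. HF replicate 2, the array with the value of 1.40, was the lowest of the HF arrays for 11 of the 13 UGT probe sets, against 30.9% of all probe sets, and the lowest of all 15 arrays for 9 of the 13. Each difference from HF given here therefore stands beside a group whose RNA quality also differed. The part of RNA quality in the UGT differences was not tested beyond a fit that held this measure as a covariate and fits that left out single arrays. Since every HF array lay above the other 12 in this measure, the covariate fit cannot fully separate it from the HF group. Values with the covariate are given for the main UGT differences from HF.

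Ugt2b38 varied the most of the 13 probe sets, with a range of 3.13 over the 15 arrays against 0.17 to 1.03 for the other 12 probe sets. Its level was 9.14, 8.12 and 8.05 in the 3 ND mice, and 7.64, 6.27 and 6.69 in the 3 HF mice. All HF mice lay below all ND mice. The level was 6.93, 6.29 and 7.86 in HFCC, 8.74, 9.15 and 9.40 in HFDC, and 7.34, 8.08 and 7.84 in HFGC. All HFDC mice lay above all HF, HFCC and HFGC mice and overlapped ND.

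In order, the mean level of Ugt2b38 was 9.10 ± 0.33 in HFDC, 8.44 ± 0.61 in ND, 7.75 ± 0.38 in HFGC, 7.03 ± 0.79 in HFCC and 6.87 ± 0.70 in HF (SD, n = 3 each). Every neighbouring pair in that order overlapped. HF was 1.57 below ND on the log2 scale, or 2.97-fold lower, and HFDC was 2.23 above HF, or 4.70-fold higher. These are the differences for which Ugt2b38 was chosen. With the RNA quality measure as a covariate they were -0.64 and 1.45, and without HF replicate 2 they were -1.27 and 1.93.

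The other comparisons of Ugt2b38 share arrays with those that chose it, except HFGC against HFCC, and none passed the threshold of an adjusted p under 0.05 (limma over all 45037 probe sets, Benjamini-Hochberg adjustment). HFDC was 2.07 ± 0.40 above HFCC (difference ± SE, 95% interval 1.23 to 2.91, adjusted p = 0.098). HFGC was 0.89 above HF (95% interval 0.04 to 1.73, adjusted p = 0.24), and HFCC was 0.16 above HF (95% interval -0.68 to 1.00, adjusted p = 0.91). The caffeinated coffee and HF thus had overlapping levels, and the interval is wide enough to hold a change of 1 in HFCC. HFGC was 1.35 below HFDC (interval of the difference -2.19 to -0.50, adjusted p = 0.50). HFGC against HFCC, the comparison whose arrays had no part in the choice, gave 0.73 (95% interval -0.12 to 1.57, adjusted p = 1.00).

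The sign of the HFCC difference turned to -0.63 with the RNA quality covariate, to -0.14 without HF replicate 2 and to -0.25 without HFCC replicate 3. That of HFGC against HF turned to -0.18 with the covariate. HFDC against HFCC passed the limma threshold without HFCC replicate 3 (adjusted p = 0.049), but its HFDC arrays were part of the choice of Ugt2b38. The spread of Ugt2b38 within groups was itself large, since its SD exceeded that of 97.8% to 99.9% of all probe sets in each of the 5 groups.

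**Figure D1:**
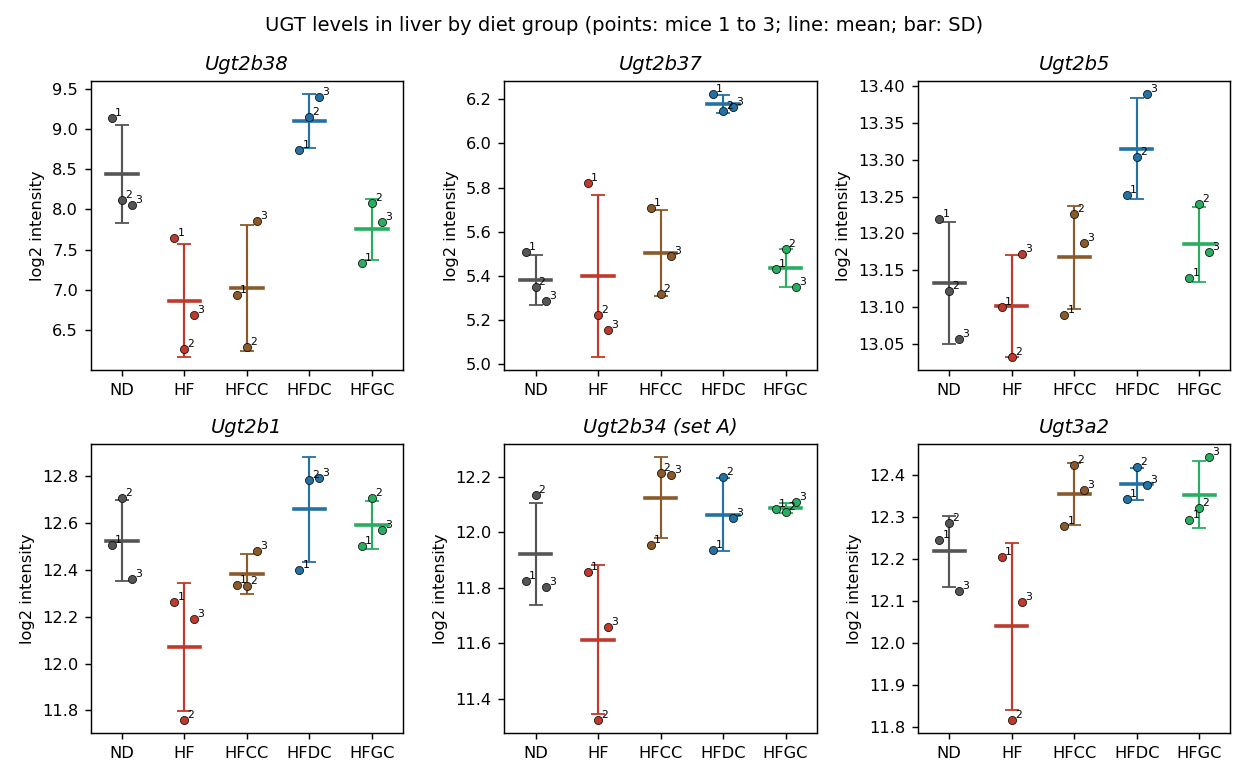
Log2 intensity (vertical axis) of 6 UGT probe sets in the 5 diet groups (horizontal axis); each point is 1 mouse with its replicate number, lines are group means and bars the SD. The HFDC mice are the highest of all 15 for Ugt2b37 and Ugt2b5 and overlap ND alone for Ugt2b38, and HF replicate 2 is the lowest array for Ugt2b38, Ugt2b5, Ugt2b1, Ugt2b34 and Ugt3a2.

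Ugt2b37, the neighbour of Ugt2b5 with the start region nearest to that of Ugt2b38, is not one of the 9 genes and came from the list of other UGTs. Its level was 6.22, 6.14 and 6.17 in HFDC, 5.82, 5.22 and 5.15 in HF, 5.51, 5.35 and 5.29 in ND, 5.71, 5.32 and 5.49 in HFCC, and 5.43, 5.52 and 5.35 in HFGC. The 3 HFDC mice lay above the other 12. Ugt2b37 rose by 0.78 ± 0.14 (SE) in HFDC against HF (1.72-fold, limma adjusted p = 0.027), while HFCC was 0.10 and HFGC 0.03 above HF (adjusted p = 0.81 and 0.94). The probe set is dim, with a mean below the median of all probe sets outside HFDC. The call was kept in 11 of 15 fits that each left out 1 array, and lost without HF replicate 2 (0.69, adjusted p = 0.12), HF replicate 3 (0.65, adjusted p = 0.10), HFDC replicate 2 (0.795, adjusted p = 0.069) and HFDC replicate 3 (0.78, adjusted p = 0.11). It was also lost with HF and HFDC fitted alone (adjusted p = 0.091) and with the RNA quality covariate (0.73, adjusted p = 0.41), and with an offset of 32 added to the intensities the difference of Ugt2b37 was 0.48. Whether probes of 1 Ugt2b gene also bind RNA of another was not tested. Among the other UGTs of that list, 5 genes on 5 probe sets outside the 13, Ugt2b37 in HFDC against HF was the only call.

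Ugt2b5 was also highest in HFDC, within a much smaller range of 0.36. Its HFDC values, 13.25, 13.30 and 13.39, lay above the other 12 arrays, the highest of which was 13.24 in HFGC replicate 2. HFDC was 0.21 ± 0.07 (SE) above HF and 0.15 above HFCC, and neither passed the threshold (limma adjusted p = 0.11 and 0.69). With the RNA quality covariate HFDC was 0.11 above HF for Ugt2b5. Over the 15 arrays, which share groups, Pearson's r with Ugt2b38 was 0.74 for Ugt2b1, 0.67 for Ugt2b37 and 0.64 for Ugt2b5, and -0.67 for the shared Ugt1a probe set B. The 5 genes outside the family with the highest r were Eogt, which adds N-acetylglucosamine to EGF domains of secreted proteins, at 0.93, Pja1, a ubiquitin ligase, at 0.92, C8b, a complement component made in hepatocytes, at 0.91, and Erbin, a membrane scaffold protein, and Myo10, an unconventional myosin, both at 0.87. These values describe the order of 15 arrays in 5 groups and carry no test.

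Ugt2b1 was the member that passed the test. Its level was 12.50, 12.71 and 12.36 in ND, 12.26, 11.76 and 12.19 in HF, and 12.34, 12.33 and 12.48 in HFCC. It was 12.40, 12.78 and 12.79 in HFDC, and 12.50, 12.71 and 12.57 in HFGC. All HF mice lay below every mouse of the other 4 groups. Ugt2b1 fell by 0.45 ± 0.13 (SE) in HF against ND (1.37-fold, limma adjusted p = 0.045) and rose by 0.59 ± 0.13 in HFDC against HF (1.503-fold, adjusted p = 0.038). HFGC was 0.52 above HF (adjusted p = 0.053) and HFCC 0.31 above HF (adjusted p = 0.28), neither past the threshold. HFDC against HFCC gave 0.28 (95% interval -0.01 to 0.56, adjusted p = 0.69), so that a difference between these coffees was not shown for Ugt2b1.

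Both calls of Ugt2b1 lie close to the threshold. The fall in HF was called in 4 of 15 fits that each left out 1 array, and lost without either of ND replicates 1 and 2, of HF replicates 2 and 3, and without 7 single arrays of the coffee groups (adjusted p from 0.024 to 0.19 over the 15). The rise in HFDC was called in 11 of the 15 and lost without either of HFDC replicates 2 and 3 and of HF replicates 2 and 3 (adjusted p up to 0.16). With the RNA quality covariate the differences were -0.06 and 0.26 (adjusted p = 0.89 and 0.55), HFGC was 0.07 above HF (adjusted p = 0.94) and HFCC was -0.02 from HF. Over the 15 arrays Ugt2b1 had a Pearson's r of -0.84 and a Spearman's rho of -0.75 with that measure, given as a description.

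Across the family, in HF against ND, 1 of the 12 UGT probe sets tested passed the threshold, that of Ugt2b1, which fell, and 10.3% of all probe sets passed in either direction. At an unadjusted p under 0.05 there were 5 of the 12, of which 2 were higher in HF, beside 26.5% of all probe sets. The median of the 12 was -0.03, beside -0.01 for all probe sets. The HF arrays did not overlap ND for 3 of the 12, higher for 2 (13% of all probe sets) and lower for 1 (11.6%). The 2 higher were Ugt2b36 (0.19, adjusted p = 0.11) and the shared Ugt1a probe set B (0.15, adjusted p = 0.17), and neither passed. With the RNA quality covariate the median of the 12 was 0.09, with 9 above 0 against 4 in the main fit. Without HF replicate 2 the median was 0.01, with 7 above 0.

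With coffee most UGT probe sets lay above HF by small amounts. The low HF values of Ugt2b38 were part of its choice, so the counts here are over the other 12 probe sets. In HFCC against HF all 12 had a difference above 0, with a median of 0.24 beside -0.00 for all probe sets, and 49.2% of all probe sets lay above 0. None of the 12 passed the threshold by limma, as 0.5% of all probe sets did, and 6 had an unadjusted p under 0.05, beside 15.5% of all. In HFDC against HF 10 of the 12 lay above 0 with a median of 0.22 beside 0.01, and 53.6% of all did. There 1 passed, beside 2.72% of all probe sets, and 7 had an unadjusted p under 0.05, beside 19.7% of all. In HFGC against HF 11 of the 12 lay above 0 with a median of 0.19 beside 0.01, and 52.4% of all did. There none passed by limma, beside 2.58% of all probe sets, and 5 had an unadjusted p under 0.05, beside 18.6% of all.

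The coffee arrays lay wholly above HF for 6 of the 12 probe sets in HFCC (7.55% of all probe sets), 5 in HFDC (11%) and 6 in HFGC (9.69%). These 3 comparisons share the 3 HF arrays, so a low HF array enters each of them. With Ugt2b38 counted in HFCC and HFGC, the medians in the main fit were 0.19 in HFCC, 0.22 in HFDC and 0.20 in HFGC. Over the same probe sets they were 0.12, 0.17 and 0.13 without HF replicate 2, and 0.05, 0.08 and 0.00 with the RNA quality covariate. No UGT was called in either of these 2 settings. Without HF replicate 1, the HF array with the lowest 3′ minus 5′ value of the 3, 5, 4 and 4 UGT probe sets passed in HFCC, HFDC and HFGC, and 3 in HF against ND. In those fits 5.96%, 7.68%, 7.36% and 12.3% of all probe sets passed.

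**Figure D2:**
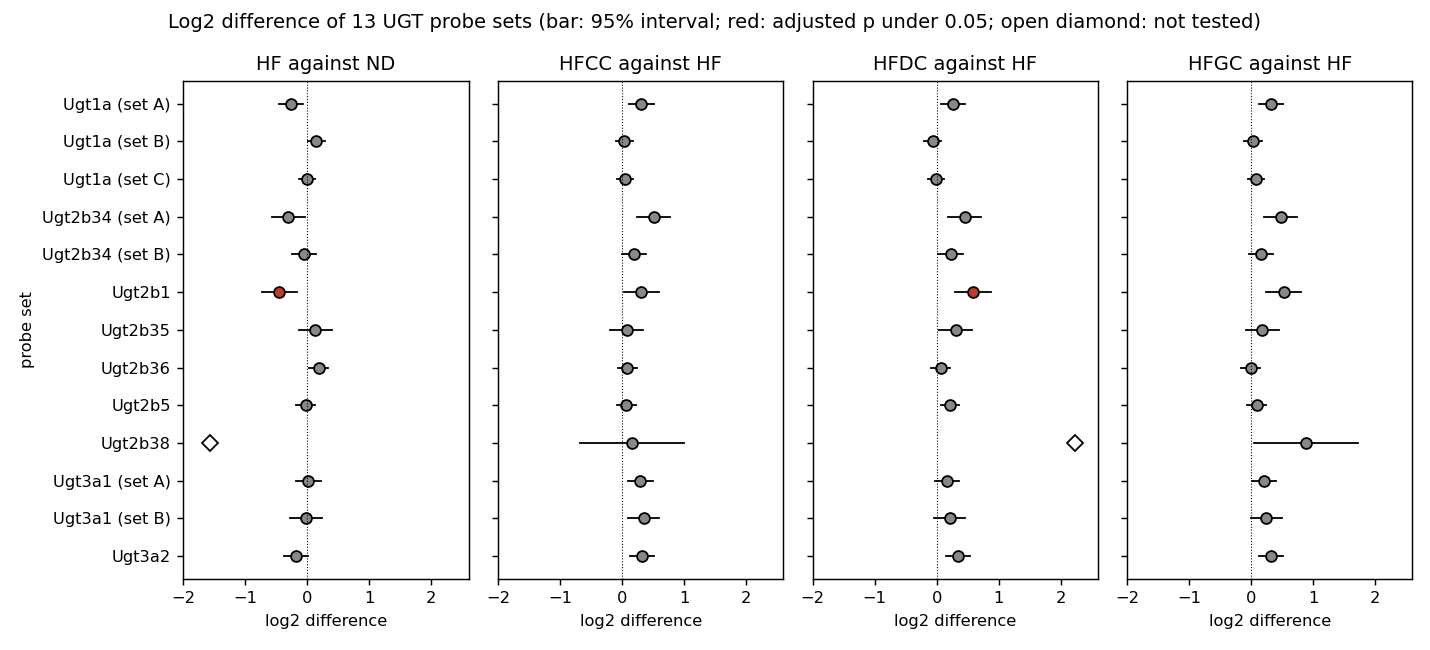
Log2 difference (horizontal axis) of the 13 UGT probe sets (vertical axis) in HF against ND and in each coffee group against HF; bars are 95% intervals, red points have an adjusted p under 0.05, and open diamonds are the comparisons that chose Ugt2b38, shown without an interval. Ugt2b1 is red at -0.45 in HF against ND and at 0.59 in HFDC against HF, and Ugt2b38 has the widest interval.

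Between the coffees little was measurable. The high HFDC values of Ugt2b38 were part of its choice, so the counts here are also over the other 12 probe sets. In HFDC against HFCC none of the 12 passed by limma (0.00444% of all did, or 2 probe sets). None had an unadjusted p under 0.05 (7.42% of all did), and the median was -0.03. The HFDC arrays lay wholly above HFCC for 1 of the 12, Ugt2b5 (7.76% of all probe sets). In HFGC against HFCC none passed (0.00222% of all did) and none had an unadjusted p under 0.05 (3.54% of all did). The HFGC arrays lay wholly above HFCC for 1 of the 12, Ugt2b1 (4.57% of all). In HFGC against HFDC none passed (0% of all did) and none had an unadjusted p under 0.05 (5.73% of all did). Ugt2b5 lay wholly lower in HFGC (6.23% of all probe sets), while the shared Ugt1a probe sets B and C lay wholly higher (5.78% of all).

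Ugt2b34 was read by 2 probe sets that differed in size. On probe set A the level was 11.83, 12.13 and 11.80 in ND, 11.86, 11.32 and 11.66 in HF, 11.95, 12.21 and 12.20 in HFCC, 11.94, 12.20 and 12.05 in HFDC, and 12.08, 12.07 and 12.11 in HFGC. All 9 coffee mice lay above the HF mice, and ND overlapped HF. The difference from HF was 0.51 in HFCC, 0.45 in HFDC and 0.47 in HFGC (limma adjusted p = 0.069, 0.065 and 0.058), and HF against ND gave -0.31 (adjusted p = 0.13), which turned to 0.08 with the RNA quality covariate. With the covariate the coffee differences on probe set A of Ugt2b34 were 0.18, 0.12 and 0.03 (adjusted p = 0.78, 0.76 and 0.97). On probe set B the same differences were 0.19, 0.22 and 0.15 for the coffees and -0.05 for HF against ND, with adjusted p from 0.19 to 0.76. Within an array B minus A was 0.55 to 0.79 in HF and 0.24 to 0.46 in the other 4 groups, so HF did not overlap the others.

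The 3 Ugt1a probe sets read RNA shared by the Ugt1a genes and cannot single out Ugt1a1. On probe set A HF was 0.26 below ND and HFCC, HFDC and HFGC were 0.31, 0.27 and 0.31 above HF (adjusted p = 0.078, 0.10, 0.12 and 0.078). These differences of the shared Ugt1a probe set A were -0.10, 0.18, 0.13 and 0.13 with the RNA quality covariate. On probe set B HF was 0.15 above ND, and on probe set C the whole range of the 15 arrays was 0.17. A and B thus had differences of opposite sign between HF and ND. Within an array B minus A was 0.33 to 0.80 in HF, 0.10 to 0.23 in ND and 0.20 to 0.40 in the coffee groups. HF lay above ND and above HFDC (highest 0.31), and overlapped HFCC and HFGC (highest 0.40 and 0.35). No single direction can be given for Ugt1a1 from these values.

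Both probe sets of Ugt3a1 moved alike, their gap within an array being 0.39 to 0.61 over all 15. HF and ND were level (differences of 0.01 and -0.02), and HFCC was 0.29 and 0.35 above HF (adjusted p = 0.13 and 0.16), HFDC 0.17 and 0.21, and HFGC 0.20 and 0.24. The Ugt3a1 differences with the RNA quality covariate were 0.16 and 0.14 in HFCC, 0.03 and 0.0028 in HFDC, and 0.02 and -0.04 in HFGC. The gene beside it, Ugt3a2, read 12.20, 11.82 and 12.10 in HF, 12.25, 12.29 and 12.13 in ND, and 12.28 to 12.44 in the 9 coffee mice. The coffee mice lay above all HF mice. The differences from HF were 0.32 in HFCC, 0.34 in HFDC and 0.31 in HFGC (adjusted p = 0.097, 0.056 and 0.075). With the RNA quality covariate they were 0.08, 0.11 and -0.00.

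Ugt2b36 and Ugt2b35 followed another order, with ND lowest. Ugt2b36 ran from 13.005 to 13.11 in ND and from 13.19 to 13.42 in the 12 mice on the high-fat diet, with or without coffee. The 3 coffee groups were 0.09, 0.07 and -0.01 from HF. Ugt2b35 ran from 11.38 to 11.57 in ND, from 11.53 to 11.70 in HF and from 11.70 to 12.17 in HFDC, and HFDC was 0.30 above HF (adjusted p = 0.19), or 0.17 with the RNA quality covariate. For Ugt2b36 Pearson's r with the RNA quality measure over the 15 arrays was -0.01, beside -0.85 for Ugt2b34 on probe set A and for Ugt3a2.

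**Figure D3:**
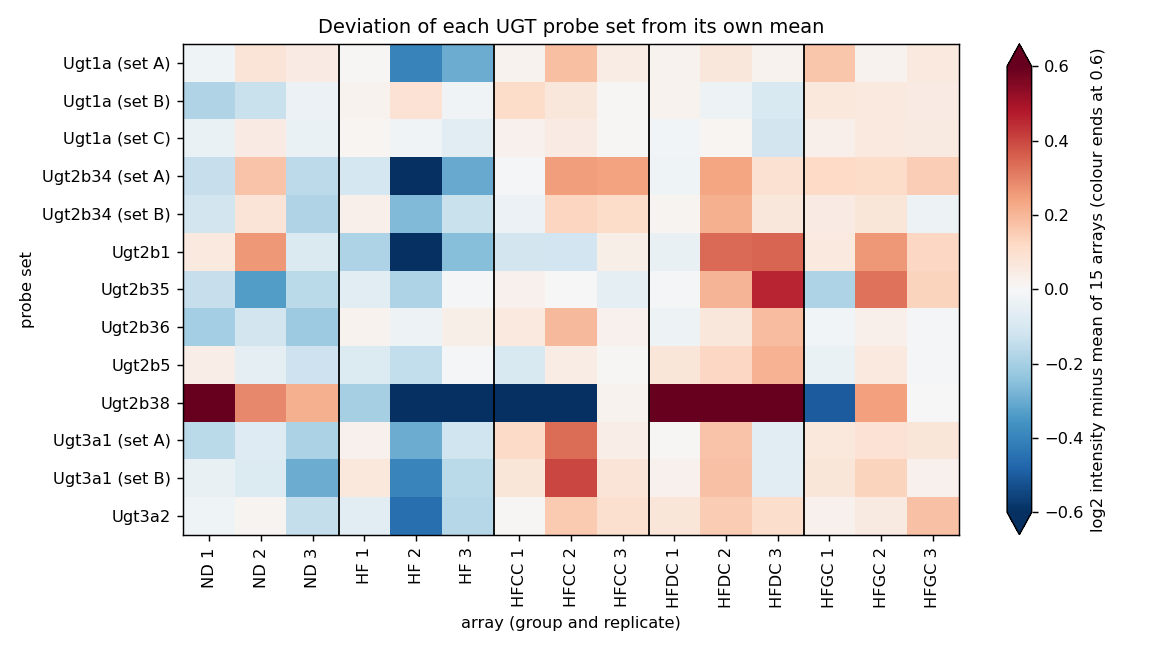
Log2 intensity of each UGT probe set (rows) in each array (columns) minus its own mean over the 15 arrays, with the colour ending at 0.6 in each direction. HF replicate 2 is the bluest column, and the rows of Ugt2b36 and of the Ugt1a probe set B are blue in ND rather than in HF.

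**Figure D4:**
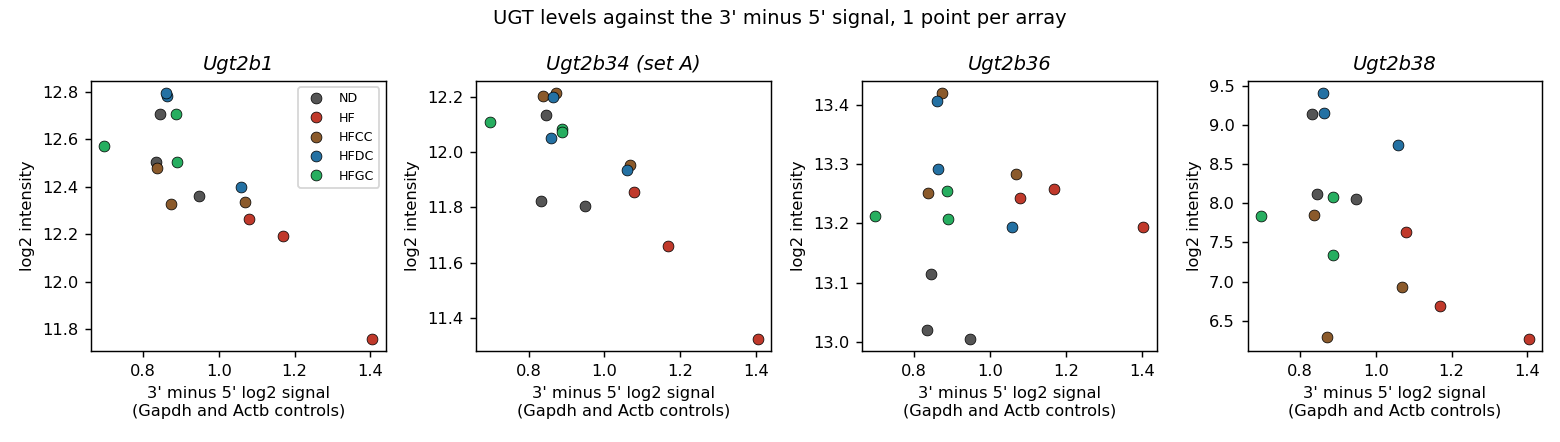
Log2 intensity (vertical axis) of 4 UGT genes against the 3′ minus 5′ log2 signal of Gapdh and Actb (horizontal axis), 1 point per array and 1 colour per diet group. The HF arrays, at 1.08 to 1.40, lie at the right end. There Ugt2b1 is lowest and Ugt2b36 is not, while Ugt2b34 (probe set A) is lowest in HF replicates 2 and 3 and overlaps ND in HF replicate 1.

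The sugar donor of the UGT1A and UGT2B enzymes, UDP-glucuronic acid, is made in the cytosol and carried into the endoplasmic reticulum. In the lists that follow a gene is counted where any of its probe sets passed. Of 9 genes of the donor's supply and use (18 probe sets), 2 rose and 1 fell in HF against ND, on 3 of the 18 probe sets, beside the 10.3% of all probe sets that passed. Ugdh, the dehydrogenase that makes UDP-glucuronic acid, rose by 0.57 ± 0.14 (SE, 1.48-fold, limma adjusted p = 0.022), and Slc35b1, a nucleotide transporter of the endoplasmic reticulum, rose by 0.71 ± 0.15 (1.64-fold, adjusted p = 0.0098). Gusb, the lysosomal beta-glucuronidase that removes the sugar, fell by 0.53 on a dim probe set (adjusted p = 0.025), and its brighter probe set gave -0.11 (adjusted p = 0.68). The median of the list was 0.04, beside -0.01 for all probe sets. With coffee against HF none passed by limma, and 3, 1 and 1 of the 18 had an unadjusted p under 0.05 in HFCC, HFDC and HFGC, beside 15.5%, 19.7% and 18.6% of all probe sets. Ugdh in HFCC, HFDC and HFGC was 0.05, -0.01 and 0.06 from HF.

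Of 19 measured transcription factor genes known to act on UGT genes (43 probe sets), 3 rose and 3 fell in HF against ND. These calls were on 6 of the 43 probe sets in each direction, beside 10.3% of all probe sets that passed in either direction. The median of the list was 0.01, beside -0.01 for all probe sets. Ppara, the nuclear receptor for fatty acids, rose by 0.92 ± 0.13 (SE, 1.89-fold, adjusted p = 0.0017). The xenobiotic receptors Nr1i3 (CAR) and Nr1i2 (PXR) rose by 0.57 and 0.51 (adjusted p = 0.016 and 0.0048), and Hnf4a, a factor of hepatocyte identity, fell by 0.57 (adjusted p = 0.0057). Ahr and Arnt, the partners of the aryl hydrocarbon response, were the others that fell.

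With coffee Ppara fell against HF in all 3 groups, by 0.64 in HFCC, 0.54 in HFDC and, on another of its probe sets, 0.86 in HFGC (adjusted p = 0.049, 0.046 and 0.013). In HFDC Nr1i3 fell by 0.70 ± 0.13 (adjusted p = 0.027) and Arnt rose by 0.38 (adjusted p = 0.033). In HFGC Arnt, on another of its probe sets, rose by 0.27 and Cebpa, another hepatocyte factor, fell by 0.28 (adjusted p = 0.039 for both). On that second probe set Arnt was 0.27 above HF in HFDC (limma adjusted p = 0.038) and 0.22 above HF in HFCC (adjusted p = 0.094). Of the 43 probe sets of the list, 2 passed in HFCC, 5 in HFDC and 5 in HFGC, beside 0.5%, 2.72% and 2.58% of all. Nr1i3 in HFCC and HFGC was -0.26 and -0.10 from HF (adjusted p = 0.37 and 0.75).

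Of 14 genes that handle bilirubin and glucuronides beside the UGTs (20 probe sets), 5 rose and 2 fell in HF against ND. These calls were on 6 and 4 of the 20 probe sets, beside 10.3% of all probe sets that passed in either direction. The median of the list was 0.17, beside -0.01 for all probe sets. Abcc3, which exports glucuronides to the blood, rose by 1.40 ± 0.17 (SE, 2.64-fold, adjusted p = 0.00059), and Gsta2, whose enzyme binds bilirubin in the cytosol, by 1.28 ± 0.38 (adjusted p = 0.045). The uptake carriers Slco1b2 and Slco1a1 fell by 1.10 ± 0.31 and 0.73 ± 0.22 (adjusted p = 0.034 and 0.049). In HFDC against HF Slco1a1 rose by 1.01 ± 0.25 on a second probe set (2.01-fold, adjusted p = 0.046) and Gsta3 fell by 0.52 (adjusted p = 0.049), 2 of the 20 probe sets beside 2.72% of all. In HFCC and HFGC against HF none passed by limma, and 4 and 8 of the 20 had an unadjusted p under 0.05, beside 15.5% and 18.6% of all.

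The calls of these lists carry the same limit as those of the UGTs. With the RNA quality covariate none of 21 called differences (those given above with their values for the lists and Ugt2b37) passed, and none changed sign. The falls of Ahr and Arnt in HF, and the rise of Arnt in HFDC on its second probe set, are not among the 21. Slco1b2 in HF against ND was then at -0.19 and Abcc3 at 1.34 (adjusted p = 0.85 and 0.073). Without HF replicate 2, 5 of the 21 passed, which were Abcc3, Ppara, Hnf4a, Nr1i2 and Slc35b1 in HF against ND. Without HF replicate 3 the same 5 and Ppara in HFGC passed, 6 in all, and without HF replicate 1 there were 20.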

How the data were processed

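Liver RNA of 15 mice (5 diet groups, 3 mice each) was measured on Affymetrix arrays. The authors deposited RMA intensities on a linear scale, 1 value per probe set and array. RMA corrects background, makes arrays alike by quantiles and sums the probes of a set, so a shift shared by all genes is removed. Which program ran RMA, and in what version, is not given in the sources used here, and scanner files were not used. All 15 value columns were mapped to samples by title.

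Of 45101 probe sets 64 controls were left out. Names came from GEO's platform annotation, in which 34945 probe sets had 1 gene symbol, 932 several and 9160 none or no entry. Log2 values were fitted in limma 3.58.1 (R 4.3.3) with 5 group means over all arrays (10 residual degrees of freedom). The 7 comparisons were tested two-sided and adjusted by Benjamini-Hochberg over 45037 probe sets, and called at an adjusted p under 0.05. Ugt2b38 was not tested in HF against ND or HFDC against HF. The members and gene lists were chosen with earlier results of these data known.

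Values of all 15 arrays were given for Ugt2b38 and every member called, ranges for others, and of each list up to 4 called genes with the largest change, each by the probe set that changed most. Ugt2b37, Ugt2b34, Ugt3a2 and Ugt2b5 were given in more detail after their values were seen. RNA quality is the mean 3′ minus 5′ log2 signal of the array's Gapdh and Actb controls. Start regions were RefSeq's (GRCm38.p6), aligned globally in Biopython 1.88. The fit was tested on simulated data. Tried as alternatives were a replicate block, limma's trend and robust options, an offset of 32, cyclic loess, a fit of the compared groups alone, RNA quality as a covariate, leaving out each array, and tests restricted to 1 probe set per gene or to sets no dimmer than the median.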

Additional observations from a re-analysis of the deposited data

How the results depend on the processing

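The count of UGT probe sets called was small and moved with most settings. In HF against ND it was 1, and 0 with an offset of 32, with the compared groups alone, with the replicate number as a block and with RNA quality as a covariate. In HFDC against HF it was 1, and 0 with the compared groups alone, the block or the covariate, 2 with 1 probe set per gene, cyclic loess, trend and robust options or the offset, and 3 among probe sets at or above the median level. In HFGC against HF it was 0, and 1 with 1 probe set per gene and 2 with cyclic loess, trend and robust options or probe sets at or above the median level. In HFCC against HF it was 0, and 1 among probe sets at or above the median level. Leaving out 1 array at a time gave 0 to 3 in HF against ND, 0 to 5 in HFCC, 0 to 4 in HFDC and 0 to 4 in HFGC against HF, and 0 to 1 in HFDC against HFCC. The 1 in HFDC against HFCC was Ugt2b38, whose HFDC values were part of its choice. Apart from the fits that left out an array, the UGT genes called under any setting were Ugt2b1, Ugt2b34 and Ugt3a2. Counts over all probe sets moved more, from 4635 to 41 in HF against ND and from 225, 1227 and 1162 to 0 in HFCC, HFDC and HFGC against HF with the covariate, and left-out arrays gave 1507 to 5560, 1 to 2685, 3 to 3460 and 9 to 3315. The cause was not tested.

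Signs were followed over all settings for Ugt2b38 and for member differences with an unadjusted p under 0.05 in the main fit. Among these, signs turned for Ugt2b38 in HFCC against HF (-0.63 with the covariate, and -0.25 to 0.55 leaving out 1 array, below 0 without HF replicate 2 or HFCC replicate 3) and in HFGC against HF (-0.18 with the covariate). With the covariate they also turned for Ugt3a2 in HFGC against HF (-0.0016), Ugt2b1 in HFCC against HF (-0.022) and Ugt2b34 in HF against ND (0.080). Outside this set further small member differences turned sign with the covariate. Among them were Ugt3a2 in HF against ND (from -0.18 to 0.10) and Ugt2b5 in HFCC against HF (from 0.07 to -0.04). Neither cyclic loess nor the offset moved the median of all probe sets by as much as 0.1. Mice with the same replicate number did not deviate together (correlations of -0.28 to 0.22, and 5 of 15 arrays closest to their own number), so the block pairs nothing known. With 3 arrays a group the number of arrays limits the precision.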
